A study of Mus musculus with 12 samples.

Results

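Mpzl2, Abcb1b, Lipg and Bhmt are 4 of the 18193 genes measured in granulosa cells of preovulatory mouse follicles, chosen by their array values, as genes among the highest over wild type (WT) in bERKO cells after human chorionic gonadotropin (hCG). The bERKO mice lack estrogen receptor beta, the main estrogen receptor of granulosa cells. All mice were 3 weeks old and had received pregnant mare serum gonadotropin (PMSG), which acts like follicle-stimulating hormone. The 4 groups, with 3 arrays each, were bERKO given PMSG and hCG, WT given PMSG and hCG, bERKO given PMSG alone, and WT given PMSG alone. Cells were taken by laser microdissection after 48 h of PMSG, followed in the hCG groups by 4 h of hCG, which acts like luteinizing hormone. The labels number the arrays within a group as biological replicates. The sources used here give neither the animals behind an array nor the strain or the disrupted part of the receptor gene. A p-value therefore measures only the spread between these samples.

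In a preovulatory follicle, estrogen and follicle-stimulating hormone prepare granulosa cells to respond to luteinizing hormone. That hormone then starts the ovulatory program through cyclic AMP, and granulosa cells begin to turn into progesterone-making luteal cells. The 4 genes have unrelated roles. Mpzl2 encodes an adhesion protein of the immunoglobulin superfamily found at epithelial cell contacts. Abcb1b encodes a P-glycoprotein, an ATP-driven pump that moves drugs and other hydrophobic compounds out of cells. Lipg encodes endothelial lipase, a secreted phospholipase that acts on high-density lipoprotein. Bhmt encodes betaine-homocysteine methyltransferase, which remakes methionine from homocysteine with betaine as methyl donor and is best known from liver.

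The choice rested on the difference between bERKO and WT after hCG, which ranked Mpzl2 first, Abcb1b second, Lipg at 5 and Bhmt at 6 of the 18193 genes. Values after hCG are therefore given as a description without a test. Plin5 (5.04 on the log2 scale) and Cemip (4.98) lay between Abcb1b and Lipg in that order and are not among the 4. Bhmt (4.78) was the last gene inside and Adcyap1 (4.58) the next outside. The contrast between genotypes after PMSG alone used none of the hCG arrays behind that difference, so it was tested. The genes were chosen with earlier results of these data known, so it is not certain that this test is independent of the choice.

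The array held 9 probe sets annotated to these genes and to no other: 3 for Mpzl2, 2 for Abcb1b, 3 for Lipg and 1 for Bhmt. Intensities below are as the authors deposited them, on a linear scale with every array scaled to a common trimmed mean of 500.0. The array medians ran from 49.1 to 112.8, and values under 16 lie among the dimmest 18.7% to 30.0% of an array. No detection calls were used here, so a dim value is only a low signal. Differences are of mean log2(intensity + 16) after quantile normalization, given with the standard error (SE) of a limma fit over all 12 arrays. On that scale the floor is 4, and changes of dim genes are understated.

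Several facts of the whole series bear on these genes. WT hCG replicate 1 and bERKO PMSG replicate 3 had Gapdh 3'/5' control ratios of 32.2 and 23.7, against 4.72 to 11.2 on the other arrays. This ratio rises when RNA is degraded or copied incompletely. WT hCG replicate 1 also had a low ovulatory response. Pgr, the progesterone receptor, measured 5.21 there on the log2 scale, against 13.10 and 13.38 on the other WT hCG arrays. Of 12 defining granulosa markers, 11 were measured, and their mean log2 level per array lay between 11.64 and 12.90. Esr2, the gene of the missing receptor, measured 8.13 to 8.53 on bERKO hCG arrays and 8.68 to 9.52 on WT hCG arrays, 8.13 to 8.64 on bERKO PMSG arrays and 9.01 to 10.33 on WT PMSG arrays. Neither genotype difference passed (limma adjusted p = 0.397 after hCG and 0.307 after PMSG). The place of its single probe set in the gene was not looked up, so Esr2 checks the labels only in part.

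Mpzl2 was bright on the bERKO hCG arrays and dim on the other 9. Its brightest probe set (1416236_a_at) gave 1793, 1529 and 3665 on the bERKO hCG arrays, against 0.748, 0.376 and 0.27 on the WT hCG arrays. With PMSG alone the values were 26.6, 9.44 and 9.79 in bERKO, against 61.4, 1.20 and 11.02 in WT. No other array came near the bERKO hCG arrays, and the WT hCG arrays were the dimmest of all. On the log2 scale the difference after hCG was 7.04 (SE 0.52), with bERKO at 11.08 ± 0.65 and WT at 4.04 ± 0.02 (SD, n = 3 each). Because WT lay at the floor, this size depends on the offset: it was 10.53 with an offset of 1 and 5.11 with an offset of 64.

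The other Mpzl2 probe sets showed the same order of groups after hCG at lower intensity. Probe set 1416237_at gave 211, 239 and 488 on the bERKO hCG arrays and 23.6, 19.8 and 26.0 on the WT hCG arrays, a log2 difference of 3.17 (SE 0.36). Probe set 1448265_x_at gave 146, 138 and 274 on the bERKO hCG arrays and 1.25, 4.90 and 4.74 on the WT hCG arrays, a difference of 3.37 (SE 0.33). All 3 were highest on bERKO hCG replicate 3. Before hCG they differed among themselves: 1416237_at gave 34.2, 28.5 and 32.7 on the bERKO PMSG arrays, above its 15.2, 3.07 and 4.05 on the WT PMSG arrays (difference 1.25, SE 0.36, not tested over all probe sets), while the groups overlapped for the other 2 in deposited intensity. After normalization 1448265_x_at did not overlap and ran the other way, at 4.40, 4.45 and 4.06 on the log2 scale in bERKO, against 5.19, 4.49 and 4.51 in WT.

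**Figure D1:**
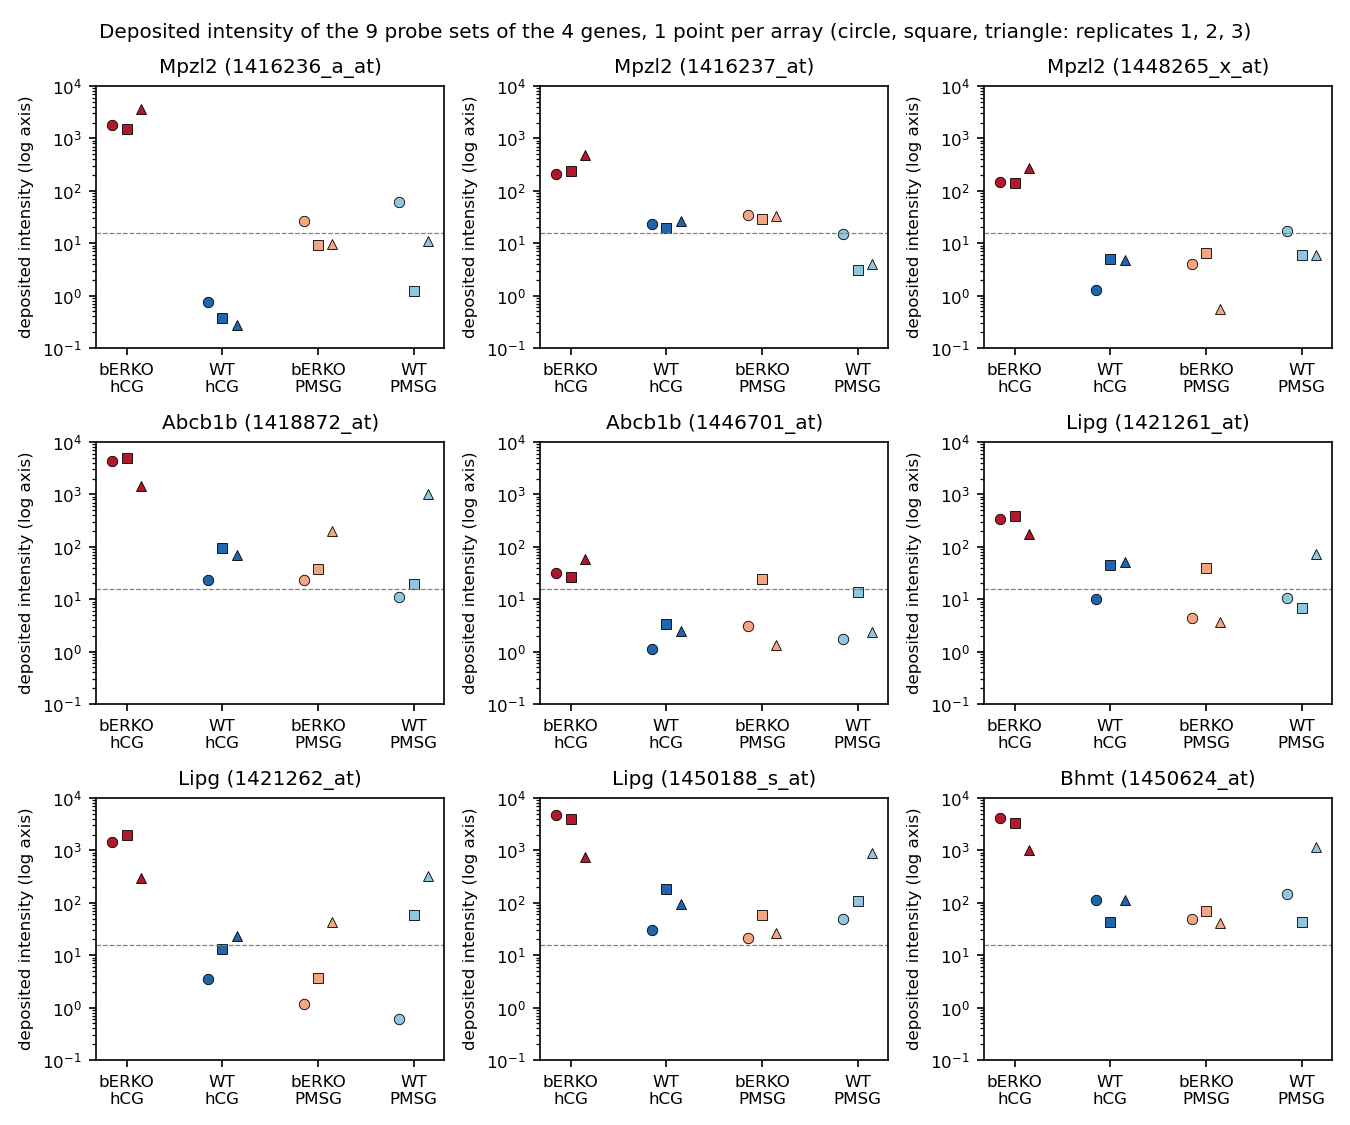
Deposited intensity (log axis) of the 9 probe sets of Mpzl2, Abcb1b, Lipg and Bhmt on each of the 12 arrays, by group, with circles, squares and triangles for replicates 1, 2 and 3 and a dashed line at 16. The bERKO hCG arrays lie above the WT hCG arrays in all panels, and WT PMSG replicate 3 stands out for Abcb1b 1418872_at, for Bhmt and for the 3 Lipg probe sets.

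Abcb1b was high on the bERKO hCG arrays and also on an array of WT cells that had received no hCG. Its brighter probe set (1418872_at) gave 4326, 4978 and 1418 on the bERKO hCG arrays, against 23.7, 93.5 and 71.1 on the WT hCG arrays. With PMSG alone the values were 22.8, 37.5 and 201 in bERKO, against 11.1, 19.2 and 1013 in WT. WT PMSG replicate 3 thus came close to bERKO hCG replicate 3, and bERKO PMSG replicate 3 was the next highest. The log2 difference after hCG was 5.65 (SE 1.17), with bERKO at 11.62 ± 0.95 and WT at 5.96 ± 0.65 (SD, n = 3 each). The dim probe set 1446701_at gave 31.3, 26.0 and 59.4 on the bERKO hCG arrays and 1.14, 3.39 and 2.47 on the WT hCG arrays, a difference of 1.47 (SE 0.36). It measured 2.33 on WT PMSG replicate 3, so the high value of that array was seen with 1 of the 2 probe sets.

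Lipg behaved like Abcb1b on WT PMSG replicate 3. Its brightest probe set (1450188_s_at) gave 4643, 3927 and 736 on the bERKO hCG arrays, against 29.7, 187 and 94.6 on the WT hCG arrays. With PMSG alone the values were 21.3, 59.3 and 26.0 in bERKO, against 48.4, 110.4 and 891 in WT. WT PMSG replicate 3 lay above bERKO hCG replicate 3, so the bERKO hCG group overlapped with WT PMSG. The log2 difference after hCG was 4.79 (SE 0.90), with bERKO at 11.24 ± 1.41 and WT at 6.44 ± 1.0 (SD, n = 3 each). The other probe sets had differences of 5.26 (1421262_at) and 2.87 (1421261_at). On WT PMSG replicate 3 they gave 321 and 71.7, where bERKO hCG replicate 3 had 304 and 172.

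Bhmt, with its only probe set (1450624_at), gave 4135, 3295 and 1009.9 on the bERKO hCG arrays, against 112, 42.8 and 115 on the WT hCG arrays. With PMSG alone the values were 49.6, 69.0 and 40.7 in bERKO, against 149, 42.4 and 1143 in WT. Again WT PMSG replicate 3 exceeded bERKO hCG replicate 3, while the other WT PMSG arrays were at 149 or less. The log2 difference after hCG was 4.78 (SE 0.86), with bERKO at 11.24 ± 1.03 and WT at 6.46 ± 0.68 (SD, n = 3 each).

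For 4 of 4 genes, by the brightest probe set, every bERKO hCG array lay above every WT hCG array. The choice used these arrays, so this is a description. Over all genes 11.4% did so. For Mpzl2 and Abcb1b every bERKO hCG array also lay above the other 9 arrays, which 5.23% of all genes did, and for Lipg and Bhmt it did not. A description of the set as induced by hCG in bERKO cells only was thus met on every array by the brightest probe set of Mpzl2. Its probe set 1416237_at also had a WT response, of 0.57 (SE 0.36). There the WT hCG arrays (19.8 to 26.0) lay above the WT PMSG arrays (3.07 to 15.2) in deposited intensity but overlapped with them after normalization. For Abcb1b, Lipg and Bhmt, WT PMSG replicate 3 carried levels near or above those of bERKO hCG replicate 3 without hCG.

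The response to hCG within each genotype shares its hCG arrays with the choice and is given without a test. In bERKO, hCG minus PMSG was 6.0 for Mpzl2, 5.16 for Abcb1b, 5.39 for Lipg and 4.86 for Bhmt on the log2 scale (SE 0.52, 1.17, 0.90 and 0.86 in the same order). The bERKO hCG arrays lay above the bERKO PMSG arrays for 4 of 4 genes, where 13.3% of all genes did so. In WT the same difference was -1.07 for Mpzl2, -0.73 for Abcb1b, -1.21 for Lipg and -1.38 for Bhmt, with the same SE. The WT arrays overlapped between treatments for 3 genes. For Mpzl2 all WT hCG arrays lay below all WT PMSG arrays, where 15.2% of all genes did so, but at dim intensities. Leaving out WT PMSG replicate 3, the WT value was 0.91 for Abcb1b, -0.14 for Lipg and -0.22 for Bhmt, so these negative values rested on that array.

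The tested contrast asked whether the genotypes already differed before hCG. 0 of 4 genes passed in limma (adjusted p under 0.05), where 0.011% of all genes passed, and 0 of 4 had an unadjusted p under 0.05, where 9.53% of all genes did. The difference was -0.02 (SE 0.52) for the brightest probe set of Mpzl2, with an adjusted p of 0.995 in limma. Its other probe sets, not tested, had 1.25 (SE 0.36, 1416237_at) and -0.43 (SE 0.33, 1448265_x_at). For Abcb1b the difference was -0.24 (SE 1.17, limma adjusted p = 0.971). Lipg had -1.81 (SE 0.90, limma adjusted p = 0.565) and Bhmt -1.46 (SE 0.86, limma adjusted p = 0.645). Without WT PMSG replicate 3 the values were 1.41 for Abcb1b, -0.74 for Lipg and -0.30 for Bhmt, none passing. The SE of Abcb1b leaves room for a difference of over 2 on the log2 scale in either direction. The missed threshold does not show equal levels for any of the 4 genes.

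**Figure D2:**
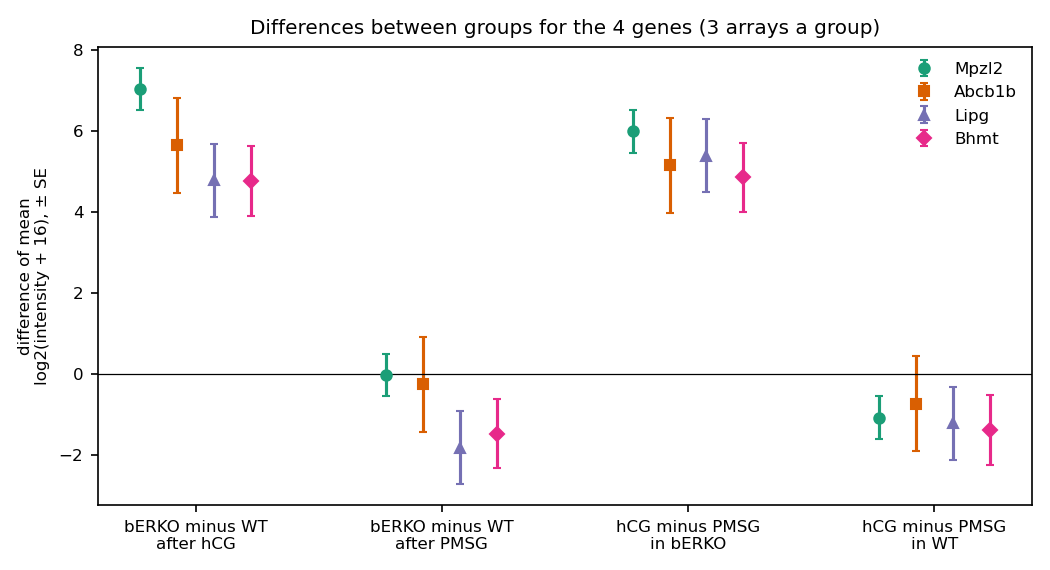
Differences of mean log2(intensity + 16) with their SE for Mpzl2, Abcb1b, Lipg and Bhmt in 4 comparisons of 3 arrays a group. The differences after hCG and the bERKO responses lie between 4.78 and 7.04, while those after PMSG and the WT responses lie between -1.81 and -0.02.

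Stromal markers were also high on the bERKO hCG arrays and on WT PMSG replicate 3. Of 18 stromal and smooth muscle markers 17 were measured, among them collagens, decorin (Dcn), lumican (Lum) and the PDGF receptors. Their mean log2 level was 8.43, 8.33 and 7.24 on the bERKO hCG arrays and 6.31, 6.72 and 6.43 on the WT hCG arrays. With PMSG alone it was 6.58, 6.03 and 7.35 in bERKO, against 5.79, 6.05 and 7.67 in WT. The order from the highest was thus bERKO hCG replicates 1 and 2, WT PMSG replicate 3, bERKO PMSG replicate 3 and bERKO hCG replicate 3. The summed log2 level ran from 123.1 to 143.2 in bERKO hCG, 107.3 to 114.2 in WT hCG, 102.6 to 125.0 in bERKO PMSG and 98.4 to 130.4 in WT PMSG. Of the 17 markers, 2 lay under a log2 level of 5 on each bERKO hCG array, 4 to 6 on the WT hCG arrays, 2 to 4 on the bERKO PMSG arrays and 1 to 7 on the WT PMSG arrays. The smooth muscle marker Cnn1 lay between 4.10 and 5.51 on all arrays. In an exact two-sided permutation test of the stromal mean, bERKO minus WT was 1.51 after hCG (p = 0.1, the smallest that 3 against 3 arrays allow) and 0.15 after PMSG (p = 0.9). The same exact permutation test after hCG also gave p = 0.1 for the means of endothelial (1.55), leukocyte (1.02), oocyte (0.70) and granulosa markers (-0.82), so that p was not particular to stroma. The exact test gave p = 0.3 for theca (0.28) and p = 0.6 for epithelial markers (0.05).

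Replicate 3 was the highest array of WT PMSG and the lowest of bERKO hCG for Abcb1b, Lipg and Bhmt but not for Mpzl2, which was highest on bERKO hCG replicate 3. Among stromal markers 10 of 17 had that order of arrays, as did 5 of 13 endothelial, 6 of 14 leukocyte, 2 of 6 theca, 2 of 9 epithelial, 0 of 11 granulosa and 0 of 12 oocyte markers. Over all genes 14.2% had it, and over the 282 genes that passed and were higher in bERKO after hCG 27.3% had it. On bERKO PMSG replicate 3 the stromal mean was 7.35, and the genes parted there. Abcb1b measured 8.16 on the log2 scale, against 5.45 and 5.77 on the other bERKO PMSG arrays. Lipg measured 5.88, against 5.38 and 6.27, and Bhmt 6.42, against 6.27 and 6.44. This array also had a Gapdh 3'/5' ratio of 23.7. The mean of 12 oocyte markers was high on WT PMSG replicate 3 as well (8.43, against 5.73 and 6.15 on the other WT PMSG arrays). It was highest on the bERKO PMSG arrays (8.91, 8.81 and 10.16), where Lipg and Bhmt were low. Abcb1b was low on replicates 1 and 2 of that group but not on replicate 3 (8.16), which had the highest oocyte mean.

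Arrays with a like stromal level can be set side by side. The stromal mean was 7.24 on bERKO hCG replicate 3, 7.35 on bERKO PMSG replicate 3 and 7.67 on WT PMSG replicate 3. On these arrays, in that order, Mpzl2 measured 11.83, 5.06 and 4.82 on the log2 scale. Abcb1b measured 10.53, 8.16 and 9.98, Lipg 9.61, 5.88 and 9.78, and Bhmt 10.06, 6.42 and 10.16. Mpzl2 was thus high on the first array alone. The other 3 genes lay close together on bERKO hCG replicate 3 and WT PMSG replicate 3 but were lower on bERKO PMSG replicate 3, at a stromal mean between those of the other arrays. These are single arrays, and the comparison has no replicate. Of them, bERKO PMSG replicate 3 had a Gapdh 3'/5' ratio of 23.7 and the lowest array median of the series (49.1), so its values may not be comparable.

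**Figure D3:**
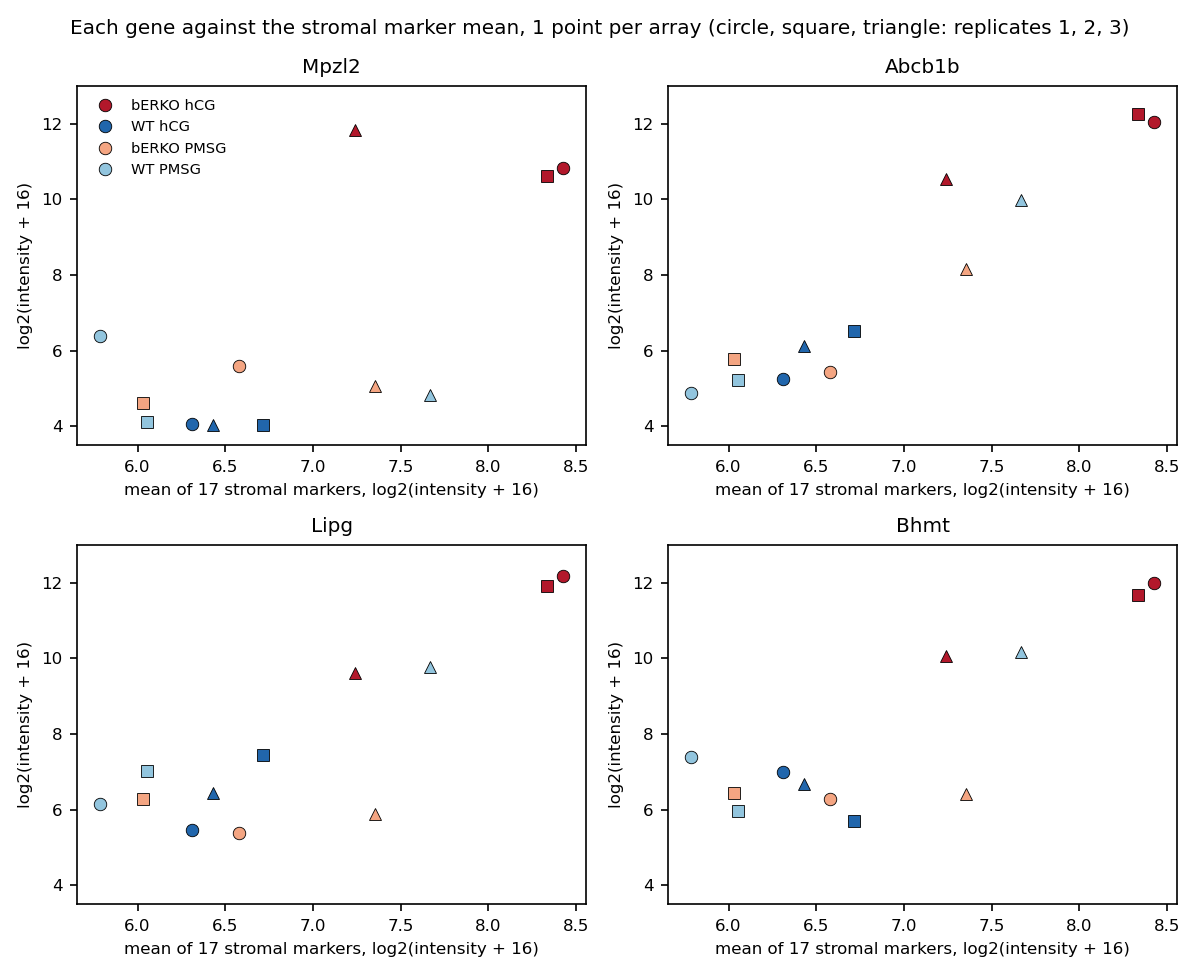
Log2(intensity + 16) of Mpzl2, Abcb1b, Lipg and Bhmt against the mean of 17 stromal markers, 1 point per array, coloured by group, with circles, squares and triangles for replicates 1, 2 and 3. Mpzl2 is above 10 only on the 3 bERKO hCG arrays, whereas WT PMSG replicate 3 lies beside bERKO hCG replicate 3 for Abcb1b, Lipg and Bhmt.

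Markers of each cell type were counted after hCG. Of 17 stromal markers 2 passed in limma and were higher, where 1.55% of all genes were: Thy1, a surface glycoprotein of fibroblasts (2.63, SE 0.51, limma adjusted p = 0.022), and the collagen Col5a1 (2.30, SE 0.50, limma adjusted p = 0.0342). The other 15 did not pass, and the median difference was 1.01, against -0.06 over all genes. The 3 probe sets of Col5a1 ran from -0.08 to 2.30. Of 13 endothelial markers 5 passed and were higher (median 1.55). In order of p they were Emcn (2.56, SE 0.35), VE-cadherin (Cdh5, 3.04, SE 0.50), the phosphatase Ptprb (1.90, SE 0.36), and the VEGF receptors Kdr (2.57, SE 0.59) and Flt1 (1.55, SE 0.36). In limma 0 of 14 leukocyte, 6 theca, 12 oocyte and 9 epithelial markers passed, with medians of 0.84, 0.19, 0.64 and -0.08. At an unadjusted p under 0.05 there were 5 leukocyte, 2 theca, 1 oocyte and 1 epithelial markers, where 17.5% of all genes were under it. Under that threshold 7 of 17 stromal and 10 of 13 endothelial markers were higher and 0 lower, and of 11 granulosa markers 6 were lower and 1 higher. The difference was positive for 17 of 17 stromal and 13 of 13 endothelial markers. Of 11 granulosa markers 0 were higher and 3 lower, where 1.54% of all genes were lower: the inhibin subunit Inhbb (-2.74, SE 0.28), the FSH receptor Fshr (-2.62, SE 0.50) and the transcription factor Foxl2 (-1.71, SE 0.37). In these bulk samples, fewer cells of a type and less RNA per cell cannot be told apart. The part of other captured cells in the levels of Abcb1b, Lipg, Bhmt and Mpzl2 was not tested.

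With 1 array left out the stromal count after hCG ran from 0 to 4. It was 0 without WT hCG replicate 1 or 2 or bERKO hCG replicate 1 or 2, 1 without WT hCG replicate 3 or bERKO hCG replicate 3, and 4 without WT PMSG replicate 3. The endothelial count ran from 2 to 5, falling to 2 without WT hCG replicate 1 or 2 or bERKO hCG replicate 1 or 2, and to 3 without WT PMSG replicate 2 or 3 or bERKO PMSG replicate 2. Emcn and Cdh5 passed in all 12 such fits. Without the 2 arrays of high Gapdh ratio the counts were 1 stromal, 3 endothelial and 2 granulosa markers. The granulosa count fell to 1 without WT hCG replicate 1 or any bERKO hCG array and to 2 without WT PMSG replicate 2 or WT hCG replicate 2, with Inhbb passing in all 12. After PMSG 0 genes of any of these lists passed in limma, where 11 oocyte markers had an unadjusted p under 0.05 and were higher in bERKO, as did 0 stromal markers.

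The genes with the closest profiles over the 12 arrays, by the root mean square difference of log2 values centred on each gene's mean, differed between the 4 genes. For Abcb1b they were the collagen Col3a1 (1.02), Igfbp7 (1.05) and the proteoglycan Bgn (1.16), and Col3a1 is also a stromal marker counted above. Col3a1 measured 12.63, 12.45 and 9.69 on the bERKO hCG arrays and 7.64, 9.03 and 7.56 on the WT hCG arrays, and 10.98 on WT PMSG replicate 3. For Lipg they were Cemip (0.70), which takes part in hyaluronan breakdown, the semaphorin Sema3d (0.78) and Tcim (0.86). For Bhmt they were Sema3d (0.89), Fxyd5 (0.91) and the calcium-binding protein S100a6 (0.92). For Mpzl2 they were Tchhl1 (1.24), the protocadherin Pcdh17 (1.38) and the NMDA receptor subunit Grin2b (1.41). None of the last 3 was highest on WT PMSG replicate 3 within its group. Among the 4 genes themselves, Lipg and Bhmt were closest (0.88), Abcb1b lay at 1.01 and 1.10 from them, and Mpzl2 at 1.58 to 1.79 from the others.

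**Figure D4:**
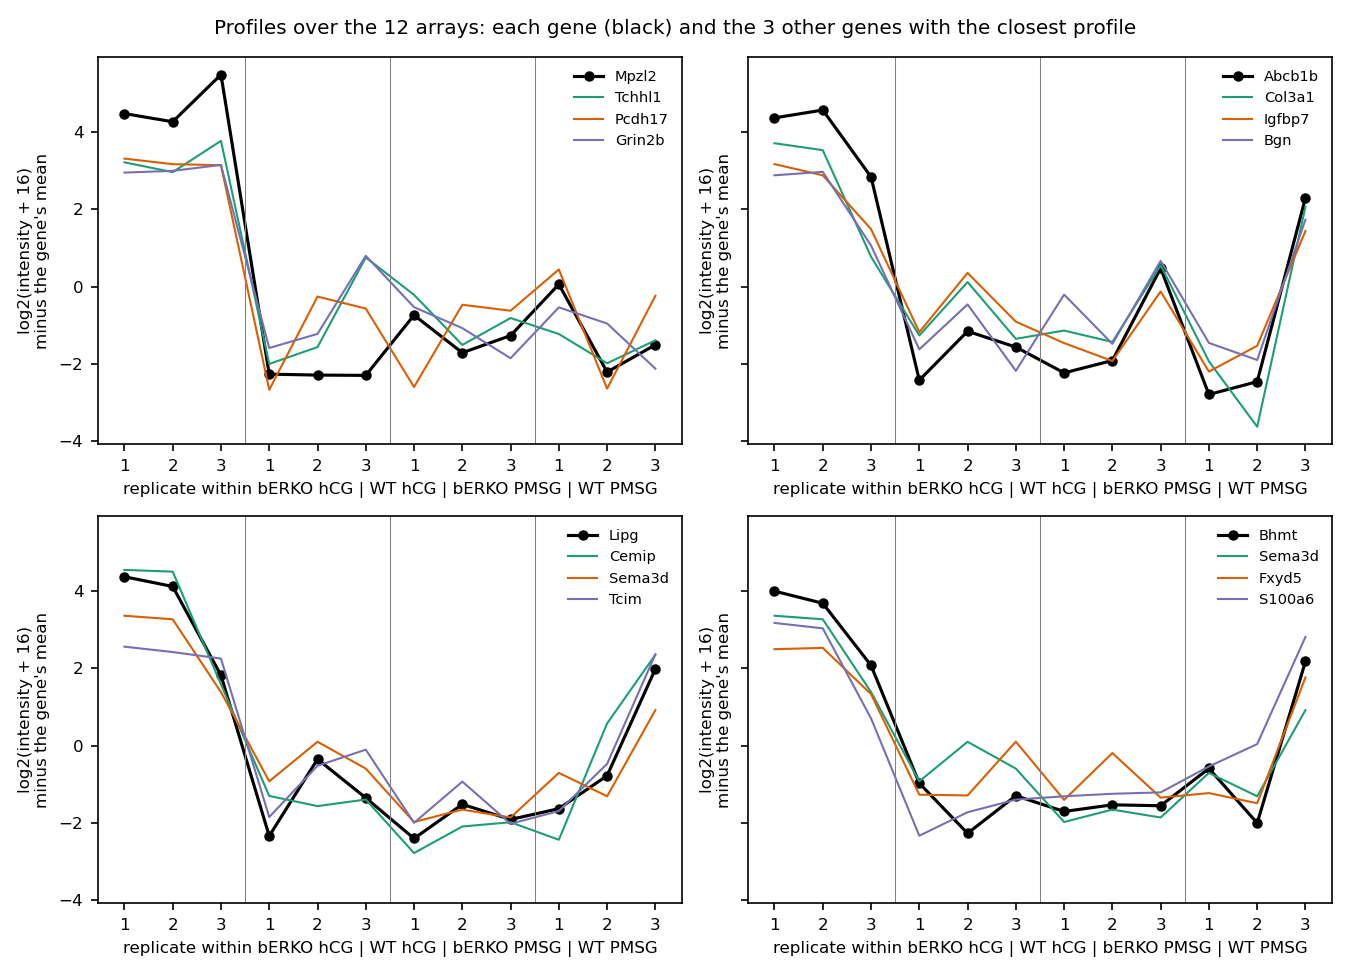
Log2(intensity + 16) minus each gene's mean over the 12 arrays, by group and replicate, for each of the 4 genes (black) and the 3 other genes with the closest profile. Abcb1b, Lipg and Bhmt and their neighbours in profile rise on WT PMSG replicate 3 (9.98, 9.78 and 10.16 for the 3 genes on the uncentred scale), whereas Mpzl2 (4.82) does not.

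Other genes of the same families or pathways were counted after hCG, where 1.55% of all genes passed and were higher and 1.54% passed and were lower. Of 9 other ABC efflux transporters 1 passed and was higher in bERKO, Abcc2, which exports conjugated compounds (2.38, SE 0.37, limma adjusted p = 0.00913), 0 were lower, and the median was -0.02. Abcb1a, the closest relative of Abcb1b and its neighbour on the chromosome, had a difference of 1.70 that did not pass (limma adjusted p = 0.181). It measured 8.21, 7.54 and 6.38 on the bERKO hCG arrays and 5.62, 5.34 and 6.07 on the WT hCG arrays. Abcb4, on the other side of Abcb1b, had -0.17 (limma adjusted p = 0.892). How far RNA of these similar genes binds each other's probe sets was not tested.

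Of 15 other lipase and lipoprotein genes 2 passed and were higher, 1 passed and was lower, and the median was 0.56. The higher genes were the lipoprotein receptor Lrp8 (2.42, SE 0.38, limma adjusted p = 0.00952) and Scarb1, the receptor that takes up cholesterol from high-density lipoprotein (1.20, SE 0.25, limma adjusted p = 0.0303). Apoa1, the main protein of high-density lipoprotein, was lower (-2.22, SE 0.38, limma adjusted p = 0.0137). Lpl, lipoprotein lipase, had 0.19 and did not pass. Scarb1 and Apoa1 no longer passed when WT hCG replicate 1, bERKO hCG replicate 1 or bERKO hCG replicate 2 was left out, and Scarb1 also not without WT hCG replicate 2 or bERKO hCG replicate 3. Lrp8 passed in all 12 such fits. As for Lipg, its replicate 3 was the highest array of WT PMSG and the lowest of bERKO hCG. Unlike Lipg, its WT PMSG replicate 3 (9.49 on the log2 scale) lay below its bERKO hCG replicate 3 (10.58).

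Of 15 other genes of the methionine and betaine cycle 0 were higher and 1 was lower after hCG, with a median of -0.33. The lower gene was Mtrr, which reactivates methionine synthase (-1.79, SE 0.35, limma adjusted p = 0.0222). It did not pass without WT hCG replicate 1 or any of the bERKO hCG arrays. Bhmt2, the paralog next to Bhmt on the chromosome, had 0.40 (limma adjusted p = 0.755), and Dmgdh, which oxidises the dimethylglycine that Bhmt makes, had 0.98 (limma adjusted p = 0.387). Of 12 other junctional adhesion genes 1 passed and was higher, the adhesion receptor Cxadr (2.20, SE 0.47, limma adjusted p = 0.0328). It lost its call in 6 of 12 fits with 1 array left out, namely without WT PMSG replicate 2, WT hCG replicate 1 or 2, or any bERKO hCG array. Mpzl3, the neighbour of Mpzl2, had 0.29 (limma adjusted p = 0.822) and measured 4.17 to 5.76 on all arrays. Genes beside these on the chromosome were named after their values were seen. Of 12 other genes of the ovulatory response, such as Ptgs2 and Pgr, 0 passed in limma between the genotypes after hCG and 8 had an unadjusted p under 0.05, where 17.5% of all genes did. Their median was 2.77, and 0.92 without the 2 arrays of high Gapdh ratio.

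The promoters of Abcb1b and Bhmt are shown, and both genes were high on the bERKO hCG arrays and on WT PMSG replicate 3. Lipg shared this pattern, so the pattern alone did not decide which promoters are shown. Those of Lipg and Mpzl2 were not used here. The printed promoters run from 250 bases before to 50 after the annotated start, from RefSeq on GRCm38.p6. They lie at chr5:8797897-8798196 (plus strand) and chr13:93637709-93638008 (minus strand), each printed along its gene. Capitals mark matches to any of 10 motifs.
Abcb1b: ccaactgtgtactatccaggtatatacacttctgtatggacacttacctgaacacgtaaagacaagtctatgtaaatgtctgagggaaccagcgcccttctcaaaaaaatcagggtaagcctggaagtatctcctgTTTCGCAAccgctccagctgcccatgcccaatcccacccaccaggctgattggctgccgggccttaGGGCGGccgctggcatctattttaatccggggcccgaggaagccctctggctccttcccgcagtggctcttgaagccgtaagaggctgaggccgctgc
Bhmt: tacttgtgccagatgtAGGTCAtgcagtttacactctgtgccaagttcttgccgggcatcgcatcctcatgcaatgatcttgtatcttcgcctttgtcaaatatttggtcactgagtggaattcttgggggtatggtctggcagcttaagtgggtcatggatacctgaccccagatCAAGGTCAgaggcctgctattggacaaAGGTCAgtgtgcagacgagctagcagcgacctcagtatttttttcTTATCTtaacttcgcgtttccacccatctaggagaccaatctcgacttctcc

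The motifs were searched on both strands. Each share is that of promoters with at least 1 match on either strand, among 32851 promoters of that length. The Abcb1b promoter had a C/EBP match (TTGCNNAA, in 10.8% of promoters) on the minus strand and an SP1 match (GGGCGG, 35.7%). The Bhmt promoter had 3 matches to the nuclear receptor core AGGTCA (16.3%), of which 1 lies within a match to the NR5A motif CAAGGTCA (1.56%), and a GATA match (AGATAA, 11.2%) on the minus strand. Neither held the letters of CRE (TGACGTCA, 1.79%), its shorter core TGACG (20.8%), AP-1 (TGANTCA, 7.81%), FOXO (TGTTTAC, 3.65%) or the TATA box (TATAAA, 13.6%). The 2 promoters thus shared no motif of this list. A match describes the letters and not a bound site.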

How the data were processed

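RNA of granulosa cells was measured on 12 one-colour arrays; each array took 25 ng of RNA, amplified and biotinylated with NuGEN kits, per the labels' protocols. The authors deposited linear intensities, 1 per probe set, scaled by them to a 2% trimmed mean of 500.0 per array. The software that made these signals and the scan batches are not given in the sources used here. Of 45101 probe sets, 64 controls were left out. Platform annotation put 34945 on 1 gene each, 932 on several genes and 9160 on none; only the first kind was used. Array medians of log2(intensity + 16) differed by 0.98, over the limit of 0.5 set for it, so intensities were quantile normalized before the log2. Each gene was represented by its probe set with the highest mean, which left 18193 genes with no filter on dim values.

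Group means were fitted with limma 3.58.1 (R 4.3.3) over all 12 arrays, with two-sided moderated tests and Benjamini-Hochberg adjustment over all genes per contrast; an adjusted p under 0.05 passed. Genes of the marker and pathway lists were named where they passed (at most 4 each way), relatives and neighbours after their values were seen, and closest profiles by the smallest root mean square difference, predicted genes skipped. The members and lists were chosen with earlier results of these data known. On simulated data for bERKO minus WT after PMSG, with 18193 genes, 7.16% of genes changed by 1, 52.5% of those changed by 2 and 92.3% of those changed by 4 on the log2 scale passed. Each of 10 draws changed 67, 67 and 66 random genes by these sizes, with independent normal noise at each gene's spread. The rates are thus averages over random genes and not rates for the 4 genes. The number of arrays limits the precision. Plots came from matplotlib 3.10.9 under Python 3.11.15.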

Additional observations from a re-analysis of the deposited data

Results flagged for a closer look

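By its brightest probe set, the hCG responses of Mpzl2 ran opposite ways in the genotypes on every array. On the log2 scale, hCG minus PMSG was 6.0 in bERKO, with all hCG arrays above all PMSG arrays, and -1.07 in WT, with all hCG arrays below all PMSG arrays. The difference was not tested, because the hCG arrays were used to choose the gene. The WT values lay at 0.27 to 0.748 after hCG and at 1.20 to 61.4 after PMSG as deposited intensities, and the other Mpzl2 probe sets had WT responses of 0.57 and -0.49. On the log2 scale the WT hCG arrays (4.03 to 4.06) and WT PMSG replicate 2 (4.12) lay near the floor of 4. The WT order of Mpzl2 thus rested on dim values. Over all genes 13.3% had the bERKO order and 15.2% had the WT order. The mean level of the 15 lipase and lipoprotein genes other than Lipg also ran opposite ways on every array, by 0.51 in bERKO and -0.16 in WT. Over all genes the medians were -0.19 in bERKO and -0.08 in WT. In WT the list means parted by little, with 8.503 on hCG replicate 1 against 8.514 on PMSG replicate 3. Of the 15 genes, 0 passed in limma for the WT response. The list difference between genotypes was not tested, and the share of all genes that ran opposite ways like this was not counted. The list mean changed by 0.63 in bERKO and -0.08 in WT with values as deposited, where all genes had medians of -0.05 and 0.03. With arrays centred on their median it changed by 0.27 and -0.34, where all genes had medians of -0.41 and -0.22.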

How the results depend on the processing

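The differences of Abcb1b, Lipg, Bhmt and Mpzl2 after hCG stayed above 0 under each alternative run, from 3.56 (Abcb1b) to 10.53 (Mpzl2). The genes were chosen for this difference, so its lasting sign is a description and no support. Leaving out a PMSG array cannot change it. For Mpzl2 an offset of 1 gave 10.53 after hCG, 6.91 for the bERKO response, -3.14 for the WT response and 10.05 for the difference of the responses, against 7.04, 6.0, -1.07 and 7.06. An offset of 64 gave 5.11, 4.75 and 5.18 for the first, second and last of these. The mean of all probe sets gave 4.53, 3.93, -0.33 and 4.26 for Mpzl2, and 3.56 after hCG, 3.10 for the bERKO response and 3.61 for the difference of the responses for Abcb1b, against 5.65, 5.16 and 5.89. After PMSG the sign of the Mpzl2 value turned with arrays centred on their median (0.13), an offset of 1 (0.48) and the mean of all probe sets (0.27), and ran from -0.52 to 0.62 with 1 array left out. That of Abcb1b ran from -1.14 to 1.41, and it was positive when WT PMSG replicate 3 (1.41), bERKO PMSG replicate 1 (0.27) or bERKO PMSG replicate 2 (0.11) was left out. None of the 4 genes passed after PMSG under any alternative (limma adjusted p from 0.463 to 1).

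Counts of passing genes depended on the choices. After hCG, 562 genes passed, against 225 with an offset of 1, 882 with an offset of 64, 259 without the 2 arrays of high Gapdh ratio, 219 with only the hCG arrays, and 141 (without WT hCG replicate 1) to 684 with 1 array left out. After PMSG, 2 passed, against 7 as deposited, 5 with arrays centred on their median, 0 with an offset of 1, 12 with an offset of 64, 1 with the mean of all probe sets, 8 with dim genes left out, 7 without the 2 arrays, 1 with only the PMSG arrays, and 0 to 26 (without WT PMSG replicate 3) with 1 left out. Centring on the median put the median of all genes after PMSG at 0.24, against 0.04. The calls after hCG split into 282 higher and 280 lower, against 221 and 344 as deposited and 356 and 179 with arrays centred on their median. Replicate numbers did not pair the samples: over genes, deviations of same-numbered arrays from their group means correlated between -0.08 and 0.12. With the number as a block, 409 genes passed after hCG and 2 after PMSG. Every number occurs in every group, so the block could not change the differences of the 4 genes, only their SE. Of the 16 list genes that passed after hCG, 9 still passed with an offset of 1, 8 with only the hCG arrays, 9 without the 2 arrays of high Gapdh ratio and 12 with the block, which ended the calls of Col5a1, Flt1, Foxl2 and Scarb1 (limma adjusted p from 0.0585 to 0.0771). From 5 to 16 passed with 1 array left out and 14 to 16 under the scaling and offset 64 alternatives, with no sign reversed. The mean of all probe sets ended the call of Col5a1 (1.12, limma adjusted p = 0.163). The stromal mean difference after hCG ran from 1.13 (mean of all probe sets) to 1.90 (offset of 1).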
